A study of Mus musculus with 6 samples.

Results

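Vwf, Slc6a2, Nr2f2, Prss23, Vcam1, Icam1, Selp and Sele are 8 genes that mark the venous endothelium of the lung or serve as its docking molecules for leukocytes. They were taken by gene name from the raw read counts, which cover 49315 mouse genes, and each name matched 1 gene. RNA-Seq was performed on dissociated lung cells of sham and bleomycin (BLM) treated mice, with 1 library for each of 6 conditions. Male C57BL/6J mice (C57BL/6 in the sample labels) received sterile saline (sham) or Bleomycin sulfate, which injures and scars the lung, by oropharyngeal instillation, and lungs were harvested 21 days later. In each treatment, 1 library was made from unsorted single cells and the other two from cells sorted by Lamp1, a lysosomal membrane protein, on the cell surface. These are called Lamp1-depleted and Lamp1-enriched cells. The animals' age is not given in the labels, 2 to 3 lungs of a group were pooled per tube, and the RNA was polyA selected. A difference between libraries therefore has no replicate, and the intervals given below are 95% intervals that cover counting error only.

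In most organs, leukocytes leave the blood mainly through small veins, and their route in these lungs was not tested. In such veins, selectins on the endothelial surface slow the rolling cell, and Icam1 and Vcam1 then hold it through leukocyte integrins. Endothelial cells keep von Willebrand factor and P-selectin ready in storage granules called Weibel-Palade bodies, as platelets do in their alpha granules, whereas E-selectin and much of Icam1 and Vcam1 are newly made when cytokines activate NF-kB. Nr2f2 (COUP-TFII) is the nuclear receptor that keeps veins venous, Prss23 is a secreted serine protease enriched in lung veins, and Slc6a2 is the noradrenaline transporter, which sympathetic neurons and lung endothelial cells use to take up noradrenaline.

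On GRCm38 the genes lie on 6 chromosomes. Vwf is at chr6:125546774-125686679 on the plus strand, Slc6a2 at chr8:92960079-93001667 (plus) and Nr2f2 at chr7:70351944-70366735 (minus). Prss23 is at chr7:89507783-89527187 (minus), Vcam1 at chr3:116109949-116129688 (minus) and Icam1 at chr9:21015985-21028817 (plus). The E-selectin gene Sele, chr1:164048234-164057677, and the P-selectin gene Selp, chr1:164115264-164150026, are near neighbours on the plus strand of chromosome 1. All 8 are protein coding.

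RefSeq promoter windows (GRCm38.p6, the 250 bases before the gene start) were at hand for 5 of the 8 genes, Nr2f2, Prss23, Icam1, Selp and Sele. The windows of both selectin neighbours and of Icam1 are shown because these leukocyte receptors had different profiles over the 6 libraries, described below. Capitals mark TATAAA, the core promoter motif. The Sele window is chr1:164047984-164048233 (plus), the Selp window chr1:164115014-164115263 (plus) and the Icam1 window chr9:21015690-21015939 (plus).
Sele: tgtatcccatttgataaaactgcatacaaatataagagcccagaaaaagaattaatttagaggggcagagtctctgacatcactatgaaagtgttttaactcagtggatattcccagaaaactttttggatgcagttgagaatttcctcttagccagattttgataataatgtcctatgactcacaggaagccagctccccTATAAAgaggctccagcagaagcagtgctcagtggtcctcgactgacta
Selp: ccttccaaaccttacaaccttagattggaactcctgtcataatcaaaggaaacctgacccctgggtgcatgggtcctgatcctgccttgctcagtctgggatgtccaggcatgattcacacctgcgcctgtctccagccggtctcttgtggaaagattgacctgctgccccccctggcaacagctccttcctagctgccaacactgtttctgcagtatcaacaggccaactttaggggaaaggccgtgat
Icam1: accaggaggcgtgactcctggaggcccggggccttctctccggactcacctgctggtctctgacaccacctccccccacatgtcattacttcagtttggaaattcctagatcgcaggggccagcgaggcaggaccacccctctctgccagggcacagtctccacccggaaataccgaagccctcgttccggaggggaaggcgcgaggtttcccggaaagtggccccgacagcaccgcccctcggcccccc
TATAAA was found in the Sele window, at positions -49 to -44 from the start, and in no other window of the 5 genes. Searched on both strands, it is in 12.4% of 32851 mouse promoter windows of the same length. The NF-kB consensus was searched on both strands as GGGRNNYYCC, where R is A or G, Y is C or T and N is any base. It is in 7.25% of those windows and was not matched in any window of the 5 genes. That says only that these letters are absent from these windows. Sites that depart from this string were not searched, so whether the windows hold an NF-kB site was not tested.

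Total reads per library ranged from 30236120 to 52918696. The BLM depleted library stood apart, with 38.4% of its reads on 1 noncoding gene, Gm26917, against 0.884% to 7.10% in the other 5 libraries. Its TMM factor, which scales the library size, was 0.699, against 0.993 to 1.19 in the others. Each BLM over sham ratio in depleted cells is therefore given with its value on total reads where the direction turned. All 15 pan-endothelial marker genes, Pecam1 and Cdh5 among them, had reads in every library. Their summed level was 8913 and 4840 CPM (reads per 1000000 reads of the TMM-scaled library size) in sham and BLM unsorted cells, 1876 and 1178 in depleted cells and 15186 and 13850 in enriched cells. The 10 alveolar epithelial markers also had reads in every library.

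Single genes are given in the same unit. Vwf, the clotting glycoprotein, had 32000 reads in sham unsorted and 33821 in BLM unsorted cells, 5359 and 3440 in sham and BLM depleted cells and 94421 and 167708 in sham and BLM enriched cells. Its levels, in the same order, were 659, 857, 118, 163, 2052 and 3077 CPM. BLM enriched cells were highest and sham depleted cells lowest, and no neighbouring counting intervals in this order overlapped.

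Slc6a2, the noradrenaline transporter, had 5152 and 2615 reads in sham and BLM unsorted cells, 726 and 135 in depleted cells and 22815 and 17641 in enriched cells. The levels were 106, 66.3, 15.9, 6.39, 496 and 324 CPM. Sham was above BLM in all 3 cell fractions, and all 6 intervals were apart.

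Nr2f2, the venous transcription factor, had 3560 and 1446 reads in sham and BLM unsorted cells, 420 and 101 in depleted cells and 3424 and 2989 in enriched cells. This gave 73.3, 36.7, 9.21, 4.78, 74.4 and 54.8 CPM. Sham enriched and sham unsorted cells were highest and their intervals overlapped, 71.9 to 77.0 and 70.9 to 75.8 CPM.

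Prss23, the vein-enriched protease, had 4789 and 641 reads in sham and BLM unsorted cells, 495 and 34 in depleted cells and 11165 and 3458 in enriched cells. Its levels were 98.6, 16.2, 10.9, 1.61, 243 and 63.4 CPM. The unsorted sham library lay above the enriched BLM library, and all intervals were apart.

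Vcam1, which binds the leukocyte integrin of Itga4 and Itgb1, had 3076 and 1031 reads in sham and BLM unsorted cells, 326 and 151 in depleted cells and 5831 and 2652 in enriched cells. The levels were 63.4, 26.1, 7.15, 7.15, 127 and 48.7 CPM. With TMM scaling both depleted libraries stood at the same low level, with overlapping intervals of 6.40 to 7.97 and 6.05 to 8.38 CPM. In TPM, without that scaling, they were at 2.32 in sham and 1.21 in BLM. A few abundant transcripts lower the other TPM values of the BLM depleted library.

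Icam1, which binds the Itgb2 integrins, had 6980 and 5115 reads in sham and BLM unsorted cells, 2578 and 1701 in depleted cells and 8371 and 9322 in enriched cells. Its levels of 144, 130, 56.5, 80.5, 182 and 171 CPM spanned a narrower range than those of the venous genes. Enriched cells were highest and depleted cells lowest in both treatments, and the intervals were apart.

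Selp, the stored selectin, had 458 and 457 reads in sham and BLM unsorted cells, 79 and 56 in depleted cells and 912 and 1695 in enriched cells. Its levels were 9.43, 11.6, 1.73, 2.65, 19.8 and 31.1 CPM. The libraries ranked as they did for Vwf, except that the intervals of both depleted libraries overlapped.

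Sele, the induced selectin, had the lowest level per exon length of the 8 in sham unsorted, BLM unsorted, sham enriched and BLM enriched cells. It had 174 and 120 reads in sham and BLM unsorted cells, 340 and 108 in depleted cells and 208 and 371 in enriched cells, or 3.58, 3.04, 7.46, 5.11, 4.52 and 6.81 CPM. Sham depleted cells were highest, which was among the 2 lowest libraries of each of the other 7 genes, and each interval overlapped the next in order. Of the 8 genes, 5 were highest in sham enriched cells, 2 in BLM enriched cells (Vwf and Selp) and 1 in sham depleted cells (Sele).

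**Figure D1:**
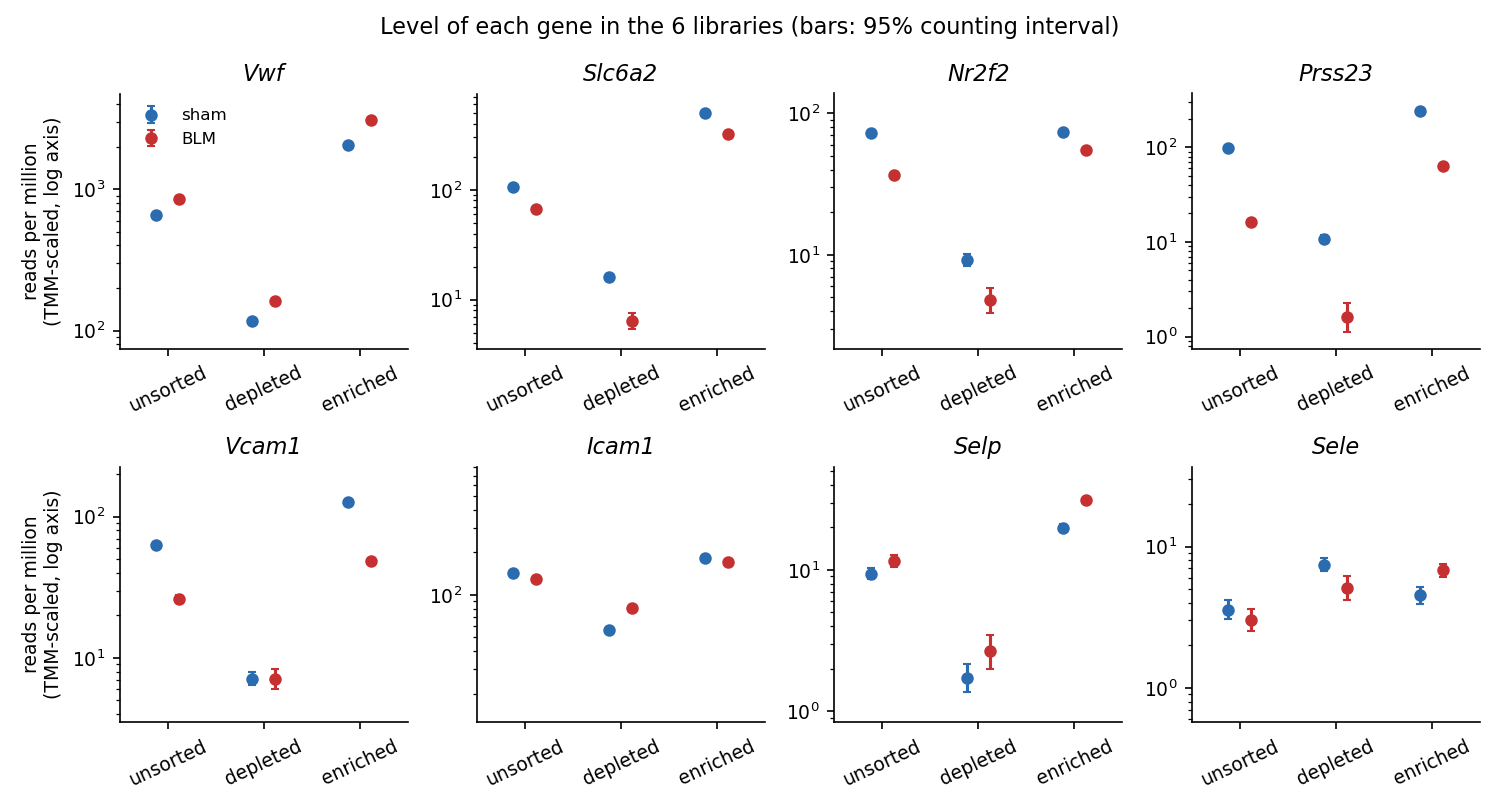
CPM (log axis) of each gene in sham (blue) and BLM (red) unsorted, Lamp1-depleted and Lamp1-enriched cells, with 95% counting intervals as bars. All genes but Sele were lowest in depleted cells. Vwf and Selp were the genes whose BLM point lay above the sham point in all 3 fractions. In depleted cells this turned on total reads alone. It did not turn with DESeq2 size factors or on total reads without Gm26917 and Gm42418.

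To compare different genes, reads were also divided by exon length and given as TPM, transcripts per 1000000, which are not TMM scaled. Vwf was the highest of the 8 per length in both unsorted libraries (119 and 133 TPM in sham and BLM) and both enriched libraries (338 and 586 TPM). In depleted cells Icam1 was highest, at 37.4 TPM in sham and 27.8 in BLM, with Vwf second at 21.1 and 15.2. Icam1 was also the highest of the 4 adhesion molecules per length in every library. In sham enriched cells the order after Vwf was Slc6a2 (209 TPM), Prss23 (171), Icam1 (111), Vcam1 (37.8), Nr2f2 (22.8), Selp (11.9) and Sele (4.11). In BLM enriched cells Icam1 (120 TPM) stood above Prss23 (51.5), and Selp (21.6) above Nr2f2 (19.4) and Vcam1 (16.8). A few abundant transcripts lower every other TPM value of a library, as in the BLM depleted one.

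**Figure D2:**
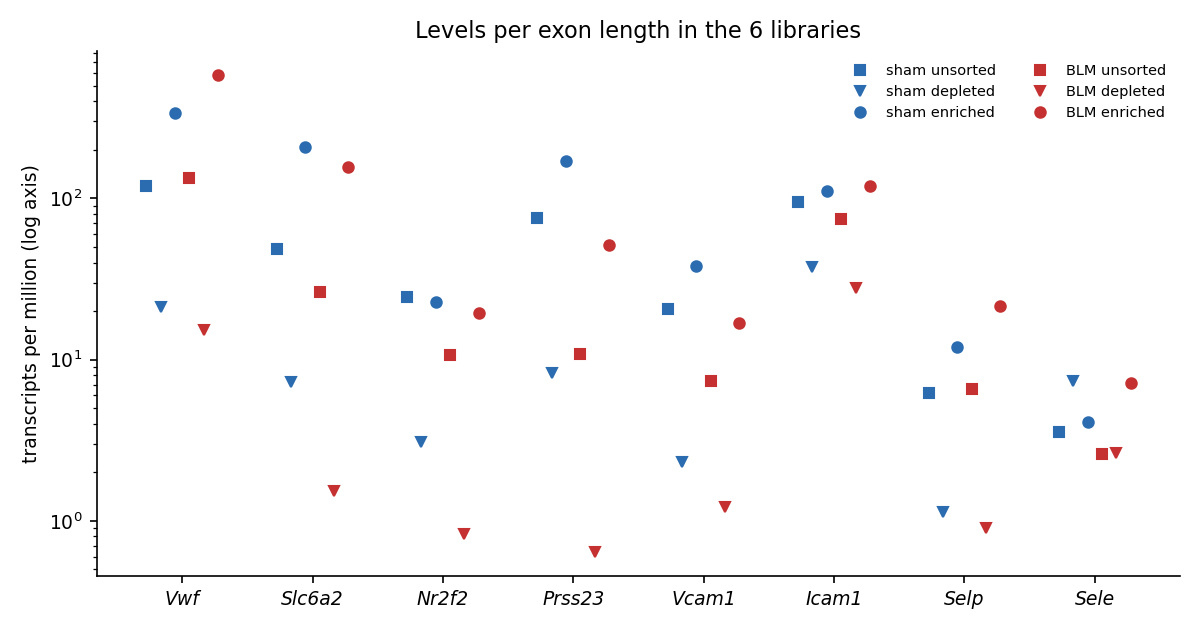
TPM (log axis) of the 8 genes in the 6 libraries, with no error bar because the points are single libraries. Vwf ranks first in unsorted and enriched cells, Icam1 in both depleted libraries.

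The first question was which of these genes differed after BLM in whole lung suspensions. In unsorted cells Prss23 was 6.07-fold lower in BLM than in sham, Vcam1 2.42-fold and Nr2f2 2.0-fold lower, whereas Vwf was 1.30-fold and Selp 1.23-fold higher. The log2 ratios of BLM over sham were -2.60 (95% counting interval -2.72 to -2.48) for Prss23, -1.28 (-1.38 to -1.18) for Vcam1 and -1.0 (-1.09 to -0.91) for Nr2f2. The interval of Nr2f2 spans the 2-fold line that is used here for counting. Slc6a2 had -0.68 (-0.75 to -0.61), which is a 1.6-fold lower level. Both stored proteins went the other way, with 0.38 (0.36 to 0.40) for Vwf and 0.30 (0.11 to 0.49) for Selp, and with libraries scaled by total reads alone they remained above 0, at 0.12 and 0.03. Icam1 had -0.15 (-0.20 to -0.10) and Sele -0.24 (-0.58 to 0.11), so that no difference in Sele was detectable at this depth.

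Past 2-fold, 3 of the 8 genes were lower and 0 higher in BLM unsorted cells. Over all genes that reached 10 reads in one of the paired libraries, 16.0% were lower and 13.9% higher by the same rule, and the median log2 ratio was -0.46 for the 8 genes and -0.07 for all. Fewer endothelial cells in a suspension and less RNA per cell cannot be told apart in such bulk libraries. The pan-endothelial genes were all 15 below 0 in this pair, 6 of them past 2-fold, with a median of -0.77. Set against that median, Vwf (1.15), Selp (1.06), Icam1 (0.62) and Sele (0.53) were above the endothelial genes on the log2 scale. Slc6a2 (0.09) was close to them, and Nr2f2 (-0.23), Vcam1 (-0.51) and Prss23 (-1.83) were below.

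In Lamp1-enriched cells the treatment difference had the same direction for 7 of the 8 genes, Sele being the exception. Prss23 was 3.82-fold and Vcam1 2.60-fold lower in BLM than in sham, and Vwf, Selp and Sele were each about 1.5-fold higher. The log2 ratios were -1.94 (-1.99 to -1.88) for Prss23, -1.38 (-1.45 to -1.31) for Vcam1, -0.62 (-0.64 to -0.59) for Slc6a2 and -0.44 (-0.51 to -0.37) for Nr2f2. Icam1 was nearly level at -0.09 (-0.13 to -0.05). Above 0 were Selp at 0.65 (0.53 to 0.77), Sele at 0.59 (0.34 to 0.84) and Vwf at 0.58 (0.57 to 0.60). Past 2-fold, 2 genes were lower, against 7.86% of all genes, and 0 were higher, against 10.2%.

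The pan-endothelial genes differed little between the enriched libraries, with a median of 0.06 and none past 2-fold. Relative to it the venous transcription factor Nr2f2 was at -0.50, Slc6a2 at -0.67, Vcam1 at -1.44 and Prss23 at -1.99. The part of cells other than endothelium in these values was not tested. Vwf (0.53), Sele (0.53) and Selp (0.59) lay above it, and Icam1 was at -0.15. The pairs in unsorted and in enriched cells come from different libraries of the same treatment groups, and the labels do not tie the pools to animals.

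In Lamp1-depleted cells, where these genes had few reads, Prss23 was again lower in BLM, at -2.74 (-3.30 to -2.25), followed by Slc6a2 at -1.32 (-1.59 to -1.05) and Nr2f2 at -0.94 (-1.27 to -0.63). Sele was at -0.54 (-0.87 to -0.23) and Vcam1 at -0.00 (-0.29 to 0.28). On total reads alone these values were -1.26 and -0.72, so that the Vcam1 value depended on the scaling. With DESeq2 size factors Sele was at -0.39 and Vcam1 at 0.15. On total reads without Gm26917 and Gm42418 Sele was at -0.59 and Vcam1 at -0.05. Vwf at 0.47 (0.41 to 0.53), Icam1 at 0.51 (0.42 to 0.60) and Selp at 0.61 (0.09 to 1.13) were above 0. On total reads alone all 3 were below it, at -0.25, -0.21 and -0.11. With DESeq2 size factors they were above it, at 0.62, 0.66 and 0.76. On total reads without Gm26917 and Gm42418 they were at 0.42, 0.46 and 0.56, in the same order. Past 2-fold, 2 genes were lower (background 22.3%) and 0 higher (13.7%). The pan-endothelial median here was -0.37, and the members relative to it ranged from -2.37 for Prss23 to 0.98 for Selp.

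**Figure D3:**
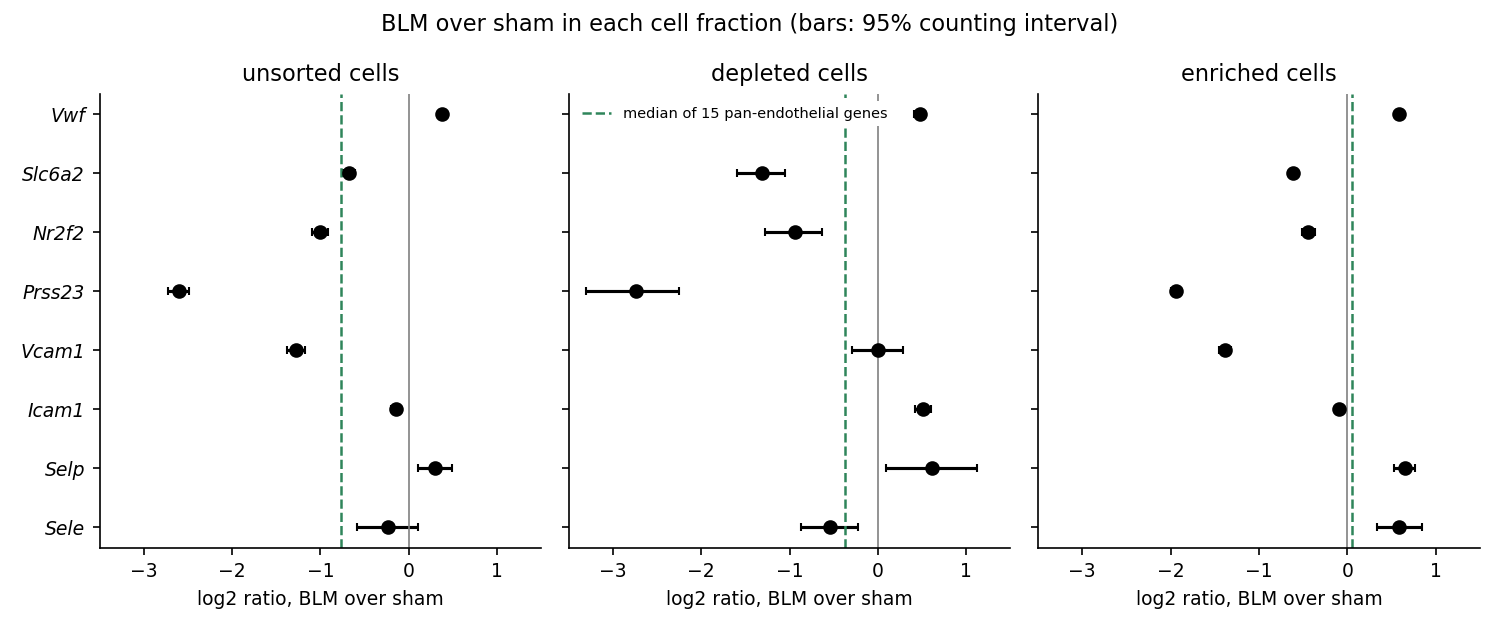
Log2 ratio of BLM over sham for each gene in unsorted, Lamp1-depleted and Lamp1-enriched cells, with 95% counting intervals as bars and the median of 15 pan-endothelial genes as a dashed line. Prss23 lay furthest below 0 in all 3 fractions, at -2.60, -2.74 and -1.94, and Vwf above the dashed line in all 3 and above 0 in all 3 with TMM scaling (on total reads -0.25 in depleted cells).

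Other genes associated with veins were compared with the 8, from a list of 12. Between BLM and sham this list was split as well. In unsorted cells 4 of the 12 were past 2-fold higher and 3 lower, with a median of 0.22, and in enriched cells 4 were higher and 2 lower, with a median of 0.21. Ackr1, the chemokine-binding receptor of venules, had 23 and 168 reads in sham and BLM unsorted cells and 17 and 541 in sham and BLM enriched cells. Its log2 ratio of BLM over sham was 3.14 (2.53 to 3.86) in unsorted and 4.71 (4.05 to 5.54) in enriched cells. Lrg1, a secreted glycoprotein that acts on vessel growth, was at 3.15 and 3.36, and Nrp2, a semaphorin and VEGF co-receptor of veins and lymphatics, at 2.67 and 1.53. In BLM, Nrp2 had 301 CPM in unsorted and 130 in enriched cells, and Bst1, also of the list, 92.1 and 32.8. These were the 2 genes of the list past 2-fold lower in enriched than in unsorted BLM cells, while 9 were higher. Which cells carry the reads of the list was not tested.

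Lower in BLM, as Prss23 and Slc6a2 were, stood Car8, a carbonic anhydrase-related protein, at -2.08 in unsorted and -1.77 in enriched cells, and Mustn1 at -1.89 and -0.90. Amigo2, an adhesion protein, was at -1.04 in both. Of the 8 genes and these 12 together, 4 were higher and 6 lower past 2-fold in unsorted cells, and 4 and 4 in enriched cells. The lists were read against the same backgrounds given above.

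Vwf and Selp are also products of platelets and megakaryocytes, so the platelet genes are given beside them. All 13 platelet and megakaryocyte genes of the list had reads in 5 of the 6 libraries, and Treml1 was at 0 in BLM depleted cells. Their summed level was 460 and 119 CPM in sham and BLM unsorted cells, 100 and 71.1 in depleted cells and 1428 and 252 in enriched cells. Whereas Vwf and Selp were higher in BLM, the platelet genes were lower, 12 of 13 past 2-fold in unsorted cells with a median of -2.14 and 13 of 13 in enriched cells with a median of -2.44. Ppbp, a platelet chemokine, had log2 ratios of -2.82 and -2.97, and Gp9, part of the platelet receptor for von Willebrand factor, -2.85 and -3.09. The part of platelet RNA in the levels of Vwf and Selp was not tested.

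**Figure D4:**
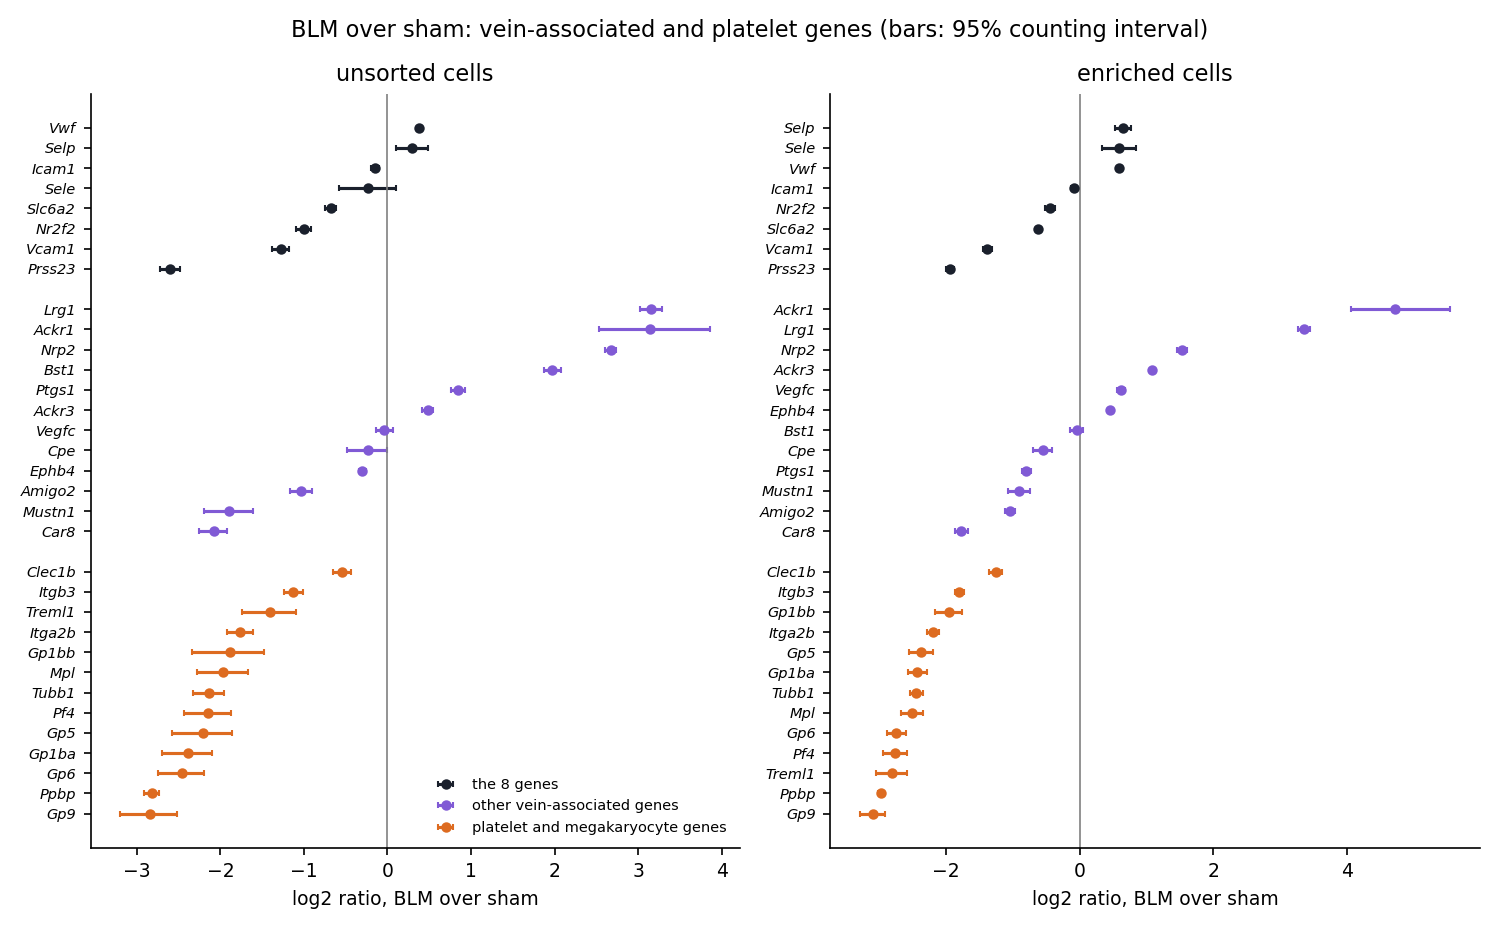
Log2 ratio of BLM over sham with 95% counting intervals for the 8 genes (black), 12 other vein-associated genes (purple) and 13 platelet genes (orange), in unsorted (left) and enriched (right) cells. Platelet genes all lie below 0 in both panels, whereas the vein-associated genes fall on both sides.

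The second question was how sorting on surface Lamp1 distributed the genes. Lamp1-enriched cells held more of 7 of the 8 than Lamp1-depleted cells in both treatments. Slc6a2 was 31.1-fold higher in enriched than in depleted cells of sham lungs and 50.5-fold in BLM lungs, and Prss23 22.3-fold and 39.1-fold. Vwf was 17.5-fold and 18.9-fold higher, and Selp 11.4-fold and 11.7-fold. Icam1 was least enriched of the 7, at 3.22-fold and 2.12-fold, and Sele was 1.65-fold lower in enriched cells of sham lungs but 1.33-fold higher in those of BLM lungs.

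On the log2 scale, enriched over depleted cells gave 4.96 (4.85 to 5.07) in sham and 5.66 (5.42 to 5.92) in BLM for Slc6a2, and 4.48 (4.35 to 4.61) and 5.29 (4.82 to 5.83) for Prss23. Vwf had 4.13 (4.09 to 4.17) and 4.24 (4.19 to 4.29), and Nr2f2 3.01 (2.87 to 3.16) and 3.52 (3.23 to 3.82). Slc6a2, Prss23 and Vwf thus exceeded an 8-fold difference in both treatments, whereas the sham interval of Nr2f2 spans the 8-fold line (a log2 ratio of 3), and its value was 2.84 on total reads alone and 2.80 without Gm26917 and Gm42418. Among the adhesion molecules, Vcam1 had 4.15 (3.99 to 4.31) and 2.76 (2.53 to 3.01), Selp 3.51 (3.18 to 3.87) and 3.55 (3.17 to 3.96), and Icam1 1.69 (1.62 to 1.75) and 1.09 (1.01 to 1.16). Sele was at -0.72 (-0.98 to -0.47) in sham and 0.41 (0.10 to 0.74) in BLM. Past 2-fold, 7 genes were higher in sham and 7 in BLM, against 27.5% and 34.3% of all genes, and 0 were lower, against 25.2% and 22.6%. At 8-fold, 6 genes were higher in sham (background 6.21%) and 5 in BLM (10.6%).

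The pan-endothelial medians of the same ratios were 3.20 in sham and 3.60 in BLM. Slc6a2 stood 1.76 and 2.06 above them, Prss23 1.28 and 1.69, and Vwf 0.92 and 0.64. Nr2f2 and Selp were within 0.31 of the median in both treatments. Icam1 was below it by log2 values of -1.52 and -2.51 and Sele by -3.92 and -3.18, while Vcam1 was at 0.94 in sham and at -0.83 in BLM.

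The 4 sorted libraries were fitted together with treatment as a block. BLM against sham over the cell fractions was not tested. By edgeR's quasi-likelihood test with Benjamini-Hochberg adjustment, 7 of the 8 were higher in enriched cells, where 21.5% of 20593 genes were called higher and 19.2% lower. The log2 fold changes were 5.21 for Slc6a2 (adjusted p = 4.34e-29), 4.76 for Prss23 (9.45e-29), 4.09 for Vwf (4.04e-14) and 3.44 for Selp (1.00e-14). Vcam1 followed with 3.37 (adjusted p = 5.50e-17), Nr2f2 with 3.16 (1.05e-15) and Icam1 with 1.29 (0.00126), and each of these 7 was higher in both treatments. Sele had -0.26 (adjusted p = 0.689). The fit had 1 residual degree of freedom and pooled its dispersion over genes, with no weight on a gene's own spread. These p-values therefore rest on a spread between these libraries that is shared over genes, and not on the spread between mice. Without the treatment block 2685 genes were called higher, against 4422 in the main fit. Genes of other cells were called higher in enriched cells as well, namely 12 of 13 platelet, 9 of 10 smooth muscle and pericyte, 9 of 10 alveolar epithelial and 7 of 10 fibroblast genes, beside all 15 pan-endothelial genes. The platelet median of enriched over depleted cells was 4.42 in sham and 3.64 in BLM. The part of these cells in the values of the 8 genes was not tested. The call of Icam1 was lost on total reads alone, at 1.58 (edgeR quasi-likelihood adjusted p = 0.139).

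**Figure D5:**
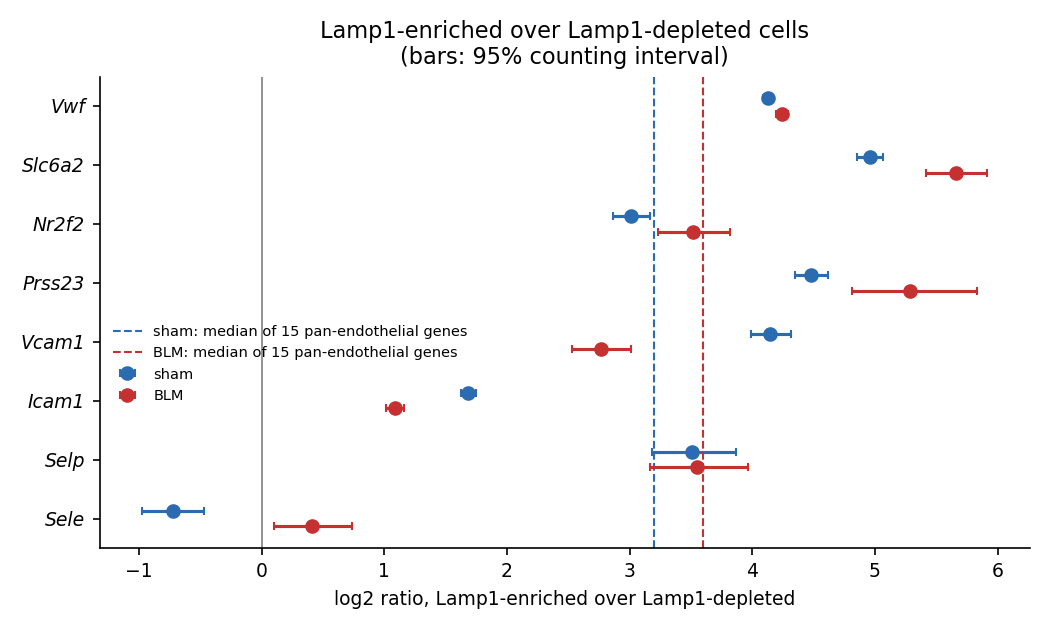
Log2 ratio of Lamp1-enriched over Lamp1-depleted cells in sham (blue) and BLM (red) lungs with 95% counting intervals, and the pan-endothelial medians of 3.20 and 3.60 as dashed lines. Slc6a2, Prss23 and Vwf lie to the right of both lines, Icam1 and Sele to the left of both, and Vcam1 lies on opposite sides in sham and BLM.

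The sorting ratio itself differed between treatments for some genes. BLM minus sham, the difference of the log2 ratios was -1.38 (-1.67 to -1.09) for Vcam1 and 1.13 (0.74 to 1.53) for Sele. It was 0.81 (0.30 to 1.31) for Prss23, 0.70 (0.43 to 0.97) for Slc6a2, 0.50 (0.18 to 0.82) for Nr2f2, 0.11 (0.05 to 0.18) for Vwf and 0.04 (-0.47 to 0.55) for Selp. Vcam1 and Sele differed in opposite directions, by more than counting error, and on total reads alone their differences were -0.65 and 1.86. That scaling also gave 1.54 for Prss23, 1.43 for Slc6a2 and 1.24 for Nr2f2. Relative to the pan-endothelial median, Vcam1 was at -1.77, Icam1 at -0.99, Selp at -0.36, Vwf at -0.28, Nr2f2 at 0.11, Slc6a2 at 0.31, Prss23 at 0.41 and Sele at 0.74. Icam1 had -0.60 (-0.70 to -0.50), but 0.13 on total reads alone, and Vwf turned to -0.05 and Selp to -0.13 with DESeq2 size factors. No p-value is given, since each of the 4 libraries stands alone.

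Against unsorted cells of the same treatment, Slc6a2 was enriched most, at 4.67-fold in sham and 4.88-fold in BLM. Vwf was at 3.11-fold and 3.59-fold, Prss23 at 2.46-fold and 3.90-fold and Selp at 2.10-fold and 2.68-fold. Vcam1 had log2 ratios of 1.0 and 0.90, the sham value just under the 2-fold line, and Icam1 had 0.34 and 0.40. Nr2f2 was at 0.02 (-0.05 to 0.09) in sham, where it was not detectably enriched and turned to -0.20 on total reads alone, and at 0.58 (0.49 to 0.67) in BLM. The pan-endothelial medians of these ratios were 0.60 in sham and 1.43 in BLM, above Nr2f2 and Icam1 in both treatments. Sele was at 0.33 (0.04 to 0.63) and 1.16 (0.86 to 1.47). Past 2-fold, 4 genes were higher in sham (background 2.63%) and 5 in BLM (12.6%), and 0 were lower in either (15.9% and 19.1%).

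Depleted cells had less of 7 genes than unsorted cells in sham, past 2-fold for each (background 30.4%), and 1 gene, Sele, was higher (18.3%). In BLM 6 were lower (33.6%) and 0 higher (16.8%). Prss23 was at -3.18 in sham and -3.32 in BLM, Slc6a2 at -2.74 and -3.37, Nr2f2 at -2.99 and -2.93 and Vwf at -2.49 and -2.40. Vcam1 was at -3.15 and -1.87, Selp at -2.44 and -2.12 and Icam1 at -1.35 and -0.69. Sele was at 1.05 (0.79 to 1.33) in sham and 0.75 (0.36 to 1.14) in BLM, the direction opposite to the other 7. These 9 pairs share 6 libraries, so their ratios are not independent of each other.

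The leukocyte side of adhesion was read from 16 genes for the ligands of the 4 adhesion molecules. Itgam was left out because 2 Ensembl genes carry that name. In BLM unsorted cells 9 of the 16 were past 2-fold higher than in sham and 0 lower, with a median log2 ratio of 1.34. Itgb2, the shared chain of the integrins that bind Icam1, was at 3.15, and Selplg, the P-selectin ligand, at 2.43. Fut7, which builds the sugar that selectins bind, went from 8 to 131 reads, a log2 ratio of 4.24 (3.31 to 5.57). On the other side of this adhesion, Icam1 was at -0.15 and Selp at 0.30 in the same pair. The part of endothelial cells in the Icam1 and Selp values was not tested. In enriched cells 2 of the 16 were higher and 1 lower. Between enriched and depleted cells the quasi-likelihood test called 10 of the 16 lower and 3 higher (Itgb1, Itga9 and St3gal4), the opposite side to 7 of the 8 genes. Macrophages carry Itgb2 integrins, and 9 macrophage markers summed to 535 and 3306 CPM in sham and BLM unsorted cells and to 159 and 411 in enriched cells. Their part in the ligand values was not tested.

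Cytokine-induced NF-kB target genes, a list of 18, gave 7 higher and 0 lower in BLM unsorted cells, with a median of 0.85. The chemokine genes Cxcl1 (3.15), Ccl2 (2.98) and Cxcl2 (2.22) were highest among them. Vcam1, Icam1 and Sele, which the same pathway is known to induce, were at -1.28, -0.15 and -0.24 in this pair. Relative to the pan-endothelial median they were at -0.51, 0.62 and 0.53. Which cells carry the reads of the list and of these 3 genes was not tested. In enriched cells 3 of the 17 tested were higher, Ccl2 at 2.67 (1.73 to 3.92), Cxcl2 at 2.09 and Cxcl1 at 1.85. Of 17 list genes tested between enriched and depleted cells, 10 were called lower by the quasi-likelihood test.

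Among 15 other endothelial adhesion and junction molecules, Icam4 was at 0 in all libraries and Madcam1, the mucosal venule addressin, at 0 in all but BLM unsorted cells, where it had 3 reads. Of the 13 tested, 0 were higher and 3 lower in BLM unsorted cells. These were Cx3cl1, the membrane-bound chemokine, at -1.54, Icam2, another ligand of the Itgb2 integrins, at -1.31, and Jam3 at -1.19. In enriched cells Cd34 (1.42) and Mcam (1.11) were higher past 2-fold and Cx3cl1 (-1.35) lower. Between enriched and depleted cells 11 of the 13 were called higher by the quasi-likelihood test, as 7 of the 8 genes were.

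The genes of Weibel-Palade bodies and their release, 15 in number, stand closest to Vwf and Selp by function. In BLM unsorted cells 2 were past 2-fold higher and 2 lower. Cd63, a membrane protein of these granules and of lysosomes in many cells, was at 3.17 in unsorted and 1.51 in enriched cells. Angpt2, the stored antagonist of the Tek receptor, was at -1.57 and -2.03, while Vwf was at 0.38 and 0.58. Of 14 tested between enriched and depleted cells, 10 were called higher and 2 lower.

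A list of 14 receptors and regulators of vascular activation gave 2 higher and 2 lower in BLM unsorted cells. Nr2f1, the close relative of Nr2f2, had 294 and 66 reads in sham and BLM unsorted cells and was at -1.85, and at -1.40 in enriched cells. Tnfrsf1b, a receptor of TNF that leukocytes carry as well, was at 2.81 and 1.04, and Il1r1, the IL-1 receptor, at 0.56 and 1.46. Between enriched and depleted cells 8 of the 14 were called higher and 2 lower.

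For Slc6a2 the other cell known to carry the transporter is the sympathetic neuron. Of the genes of that cell, Dbh, which makes noradrenaline, was at 0 in all 6 libraries and Th, the first enzyme of its synthesis, had at most 6 reads. Phox2a, Hand2 and Chga had at most 8 reads in any library, against 135 to 22815 reads of Slc6a2.

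For each of the 8 genes, the 3 genes with the most similar profile were looked up by Pearson's r over the 6 libraries, among 17917 genes. The 6 points share the sorted fractions and the treatment, and the values are a description only. They were Ttyh3 (0.999), Pcdhb10 (0.998) and Pcdhb11 (0.998) for Vwf, Chst11 (0.999), Ndufa12 (0.999) and Abhd2 (0.998) for Slc6a2, and Slfn5os, Fam212b and Clec9a (each 0.999) for Nr2f2. Prss23 was most like Hpgd (0.999), Fmo5 (0.998) and Fmo1 (0.998), and Vcam1 like Cby1, Gm37422 and Spr (0.997 to 0.998). Icam1 was most like Fam219a (0.998), Fez2 (0.997) and Xdh (0.997), and Selp like Pcdhb10 (0.998), Plscr3 (0.998) and Ddah1 (0.998). The best for Sele, Slc29a4 at 0.977, was lower than for the other 7. Vwf and Selp had 0.996 with each other.

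An antisense gene overlaps exons of 5 of the 8 genes, and whether the counting used strand is not given in the sources used here. In the library where the share was highest, the overlapping gene's own reads were 22.8% of those of Selp (Gm16548), 11.7% of Nr2f2 (B130024G19Rik), 2.64% of Icam1 (Gm47079), 1.03% of Vcam1 (Gm43109) and 0.606% of Prss23 (Prss23os). A second one, Gm16587, reached 8.30% of Selp. Without strand, reads of a gene and its antisense partner cannot be told apart, which bears on the low counts of Selp in depleted cells. It also bears on Nr2f2 in unsorted cells, where the BLM over sham ratio lies at the 2-fold line. There B130024G19Rik had 417 reads in sham and 96 in BLM, beside 3560 and 1446 of Nr2f2.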

How the data were processed

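Bulk RNA-Seq of 6 libraries, 1 per condition, was analysed from the deposited raw read counts per gene, to which the authors applied no normalization. The submitters' processing notes name Trimmomatic 0.36, STAR 2.5.2b, featureCounts of Subread 1.5.2, DESeq2 and GRCm38. No strand setting was found in them. Columns were matched to conditions by their labels.

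TMM factors over all libraries were computed with edgeR 4.0.16 in R 4.3.3. Levels are CPM, reads per 1000000 on TMM-scaled library sizes, with exact Poisson intervals. Log2 ratios used a prior count of 0.5, scaled to library size, where one library of the pair reached 10 reads, and carry 95% Clopper-Pearson intervals of the share of reads. Library totals of 30236120 to 52918696 reads set their width. Intervals cover counting error only. With 1 library per condition no p-value is given for any pair. A gene counted as higher or lower at 2-fold. The median log2 ratio of 15 pan-endothelial genes was subtracted as a reference in which the scaling of a library cancels. TPM used merged exon lengths of GENCODE M21, which held 49056 of the 49315 genes. Enriched and depleted cells were also compared over the 4 sorted libraries by edgeR's quasi-likelihood test with treatment as a block, filterByExpr and a Benjamini-Hochberg threshold of 0.05. Other calculations used Python 3.11.15, numpy 2.4.6, scipy 1.17.1 and pandas 2.3.3. The scripts were tested on simulated data.

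Named genes were the 8 genes, up to 3 list genes with the highest and 3 with the lowest ratio in a comparison among those with at least 50 reads, and the 3 most similar genes. Any other gene (such as a ligand set beside its receptor) was picked with its values in view. The 8 genes and the 21 gene lists were chosen with earlier results of these data known. Alternatives were other scalings (DESeq2 1.42.0 size factors, total reads, total reads without Gm26917 and Gm42418), a prior count of 2, read minimums of 1 and 50, an 8-fold threshold, Pecam1 and Cdh5 as the endothelial reference, and other fits of the test.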

Additional observations from a re-analysis of the deposited data

Results flagged for a closer look

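Icam1 and Sele had log2 ratios of opposite sign between cell fractions or treatments. The differences were not tested, since each value rests on 2 libraries. For Icam1, BLM over sham was -0.15 in unsorted and -0.089 in enriched cells, against 0.51 in depleted cells, where it turned to -0.21 on total reads alone. In depleted cells it was 0.66 with DESeq2 size factors and 0.46 on total reads without Gm26917 and Gm42418. For Sele, enriched over depleted cells was -0.72 in sham and 0.41 in BLM (0.26 with DESeq2 size factors and 0.27 without Gm26917 and Gm42418), and BLM over sham was -0.54 in depleted and 0.59 in enriched cells. The BLM depleted library, which stands apart by its share of Gm26917 reads, enters each of these contrasts other than BLM over sham in unsorted or enriched cells and the sorting ratio in sham.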

How the results depend on the processing

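No replicate could be left out with 1 library per condition, and leaving out a sorted library leaves the quasi-likelihood test no residual degree of freedom. No paired analysis was possible because the labels give no replicate numbers, and the test over sorted libraries blocks on treatment instead. Of the alternative values for summary counts, 135 stayed within 1.5 times the main count and 12 moved. The alternative read minimums could not change a count of the 8 genes, which passed each of them in every pair. The lowest value in the higher library of a pair was 79 reads, for Selp in sham depleted cells. For these genes, an unchanged count under those settings therefore does not show stability. At an 8-fold threshold no gene was lower in BLM than in sham in unsorted, depleted or enriched cells (0 each, against 1.93%, 3.84% and 0.637% of all genes). The same threshold gave 0 genes higher in enriched than in unsorted cells in sham and 0 in BLM (0.152% and 0.822% of all genes). Depleted over unsorted cells then had 0 higher in sham (2.69% of all genes). In that pair 2 were lower in sham and 2 in BLM (6.79% and 7.03% of all genes lower). On total reads alone 4 genes were lower past 2-fold in BLM than in sham depleted cells. The share of all genes past 2-fold was not counted for that scaling, so the 4 have no background. That scaling moved the median of all genes by -0.26 for BLM over sham in unsorted cells and by -0.72 in depleted cells, and by 0.56 for enriched over depleted cells in BLM. With Pecam1 and Cdh5 as the reference, 5 genes instead of 3 were above it for enriched over depleted cells in BLM. For depleted over unsorted cells 2 instead of 4 were above it in sham and 2 instead of 4 in BLM. In the test over sorted libraries Sele turned to 0.033 (edgeR adjusted p = 0.983) on total reads, with 0.674 to 0.983 over its alternatives, and Icam1 lost its call at 1.58, with adjusted p of 0.000632 to 0.139 over its alternatives. The other 6 genes kept theirs in every fit. Depth limits Sele in all libraries, with 108 to 371 reads. The lowest counts were those of Prss23 (34 reads) and Selp (56) in BLM depleted cells.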

Other observations

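Other endothelial beds were summarised from lists in the same way. In BLM over sham unsorted cells, the arterial list of 12 had 1 gene higher and 3 lower past 2-fold, the general capillary list of 10 had 1 higher and 5 lower, and the aerocyte list of 10, for the thin capillary cells of gas exchange, had 0 higher and 5 lower. In enriched cells the arterial list had 3 higher (Cxcl12 at 1.79, Gja5 at 1.66 and Gja4 at 1.26) and 0 lower. Cxcl12 encodes a chemokine of arterial endothelium and stroma, and Gja5 and Gja4 encode the connexins of arterial cells. The general capillary list had 1 higher and 0 lower in enriched cells, and the aerocyte list 0 higher and 3 lower, with Fibin at -1.99, Ednrb at -1.27 and Apln at -1.07. All genes of the arterial, capillary and aerocyte lists were called higher in enriched than in depleted cells by edgeR's quasi-likelihood test.

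Smooth muscle and pericyte genes, which lie around the same vessels, gave 1 higher and 6 lower of 10 in BLM unsorted cells and 1 higher and 3 lower in enriched cells. Of the immune lists, all 10 T cell genes and all 8 B cell genes were called lower in enriched than in depleted cells by the same test. Neutrophil genes were past 2-fold higher in BLM for 2 of 7 tested in unsorted cells, 7 of 7 in depleted cells and 5 of 8 in enriched cells. Macrophage genes were higher for 9 of 9 in unsorted, 3 of 9 (with 1 lower) in depleted and 7 of 9 in enriched cells. The fibroblast list of 10 gave 3 higher and 3 lower in unsorted and 2 higher and 1 lower in enriched cells, the alveolar epithelial list of 10 gave 1 and 6 in unsorted and 0 and 6 in enriched cells, the mesothelial list of 8 gave 2 and 0 in unsorted and 4 and 0 of 7 tested in enriched cells, and the lymphatic list of 9 gave 3 and 2 in unsorted and 2 and 2 in enriched cells.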
